A study of Drosophila melanogaster with 2 samples.

Results

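The genes described here are 8 members of the bZIP family of transcription factors: CrebB, cnc, maf-S, Atf3, vri, Pdp1, slbo and Irbp18. They were chosen by name from a list, with earlier results of these data known, and are 8 of the 13986 protein-coding genes in the annotation. The question put to each was where binding of CrebA, another bZIP factor, was recorded in or within 5000 bp of it. The data came from chromatin immunoprecipitation with sequencing (ChIP-seq) on whole larvae of the third instar, at the wandering stage, of unknown age and with both sexes pooled. All animals carried 1 modified allele, CrebA-MiMIC-GFP, in which an eGFP exon placed in an intron of CrebA yields a CrebA-eGFP fusion protein, and the precipitation is described as using an antibody to GFP, although the labels' antibody entry names CrebA. Chromatin was sheared by sonication to a size range of 200 to 800 bp. There was 1 group, with 2 biological replicates labelled 4 and 2, and no other genotype, stage or treatment, so no groups were compared and no test was run. Whole larvae mix all tissues, so a peak here has no cell type. Both replicates carry the same insertion, and the control alignment named by the deposited notes was not analysed here.

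A bZIP protein binds DNA through a basic region and pairs with a second bZIP protein through a leucine zipper, so the choice of partner sets which sequence is read. CrebA belongs to the CREB3 branch and is known as an activator of genes of the secretory pathway in the embryo. The other bZIP genes serve quite different ends: CrebB is the fly CREB, which acts in cyclic AMP signalling and memory, cnc encodes the fly Nrf2 of the antioxidant response along with a segment identity protein of the head, and maf-S encodes the small Maf protein that pairs with Cnc. Atf3 encodes a stress-responsive factor that can pair with Jun. The genes vri and Pdp1 encode a repressor and an activator of Clk in the circadian clock and are also used outside it. The C/EBP gene slbo is needed for the migration of border cells in the ovary, and Irbp18 encodes a C/EBP-like protein known to pair with Xrp1.

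Peaks were called by the authors. The optimal list is the stricter one, with 2238 peaks of which 2209 are nuclear, and the pooled, replicate 4 and replicate 2 relaxed lists hold 29999 each. Each peak has a summit, the single base listed as its highest point or centre, and a signal in the authors' units, whose scaling to depth is not stated. Signals are therefore set side by side only within a list. Ranks run from 1 for the strongest peak, with mitochondrial peaks counted. Coordinates are those of the dm6 build. Read counts were not analysed here, so the depth behind these values is unknown.

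Of the 8 genes, 6 had at least 1 optimal summit in the gene or within 5000 bp, with 9 at vri, 5 at cnc, 3 each at Pdp1 and Atf3, 2 at CrebB and 1 at slbo. The genes maf-S and Irbp18 had none. Among all protein-coding genes 15.8% had such a summit, and among those over 10 kb, whose windows are wider, 40.7% did. All 5 of the bZIP genes over 10 kb had one. An optimal summit lay within 500 bp of a transcript start at 4 of the 8 genes, CrebB, cnc, Atf3 and vri, against 5.13% of all protein-coding genes. Genes with 3 or more distinct starts offer more places to score, and 20.7% of those had a summit at one, against 3 of the 4 bZIP genes of that kind (CrebB, cnc and vri, with Pdp1 the exception). Over single starts, 8 of the 26 distinct starts of the 8 genes had an optimal summit within 500 bp, against 4.87% of the distinct starts of all protein-coding genes. The outermost CrebB start and the next one shared the same summit. Taken per length, the 8 windows held 0.929 optimal summits per 10 kb, against 0.171 per 10 kb over the windows of all protein-coding genes. By gene this rate ran from 0 at maf-S and Irbp18 to 2.79 at vri. For pooled summits the rates were 3.63 and 1.89 per 10 kb. With 8 genes chosen by name, and with earlier results of these data known, these are counts only.

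**Figure D1:**
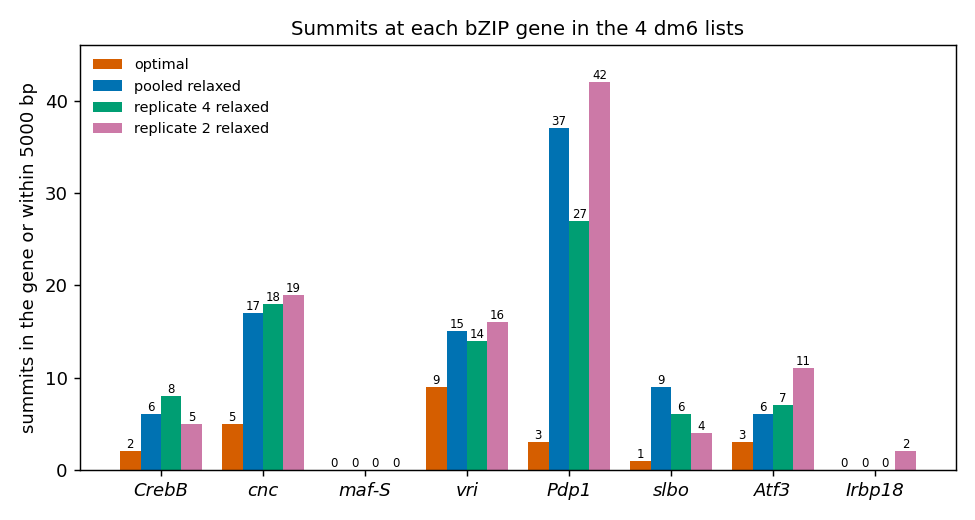
Number of summits in or within 5000 bp of each bZIP gene (y axis) in the optimal, pooled relaxed, replicate 4 relaxed and replicate 2 relaxed lists (bars, left to right within each gene). Pdp1, the longest gene, had the most pooled summits, 37, and vri the most optimal ones, 9, while maf-S had 0 in all 4 lists. Counts are not adjusted for gene length.

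The 23 optimal summits at these genes had a median signal of 131, from 78.7 to 414, against a median of 110, from 76.9 to 780, over the 2209 nuclear optimal peaks. Of the 23, 14 were above the nuclear median. By place, 16 lay in introns, 6 upstream of the gene and 1 downstream, and none lay in an exon. Counted against the starts of the bZIP genes themselves, 9 summits lay within 500 bp of one. Against any annotated start, 12 of the 23 did, compared with 40.8% of the nuclear optimal summits.

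**Figure D2:**
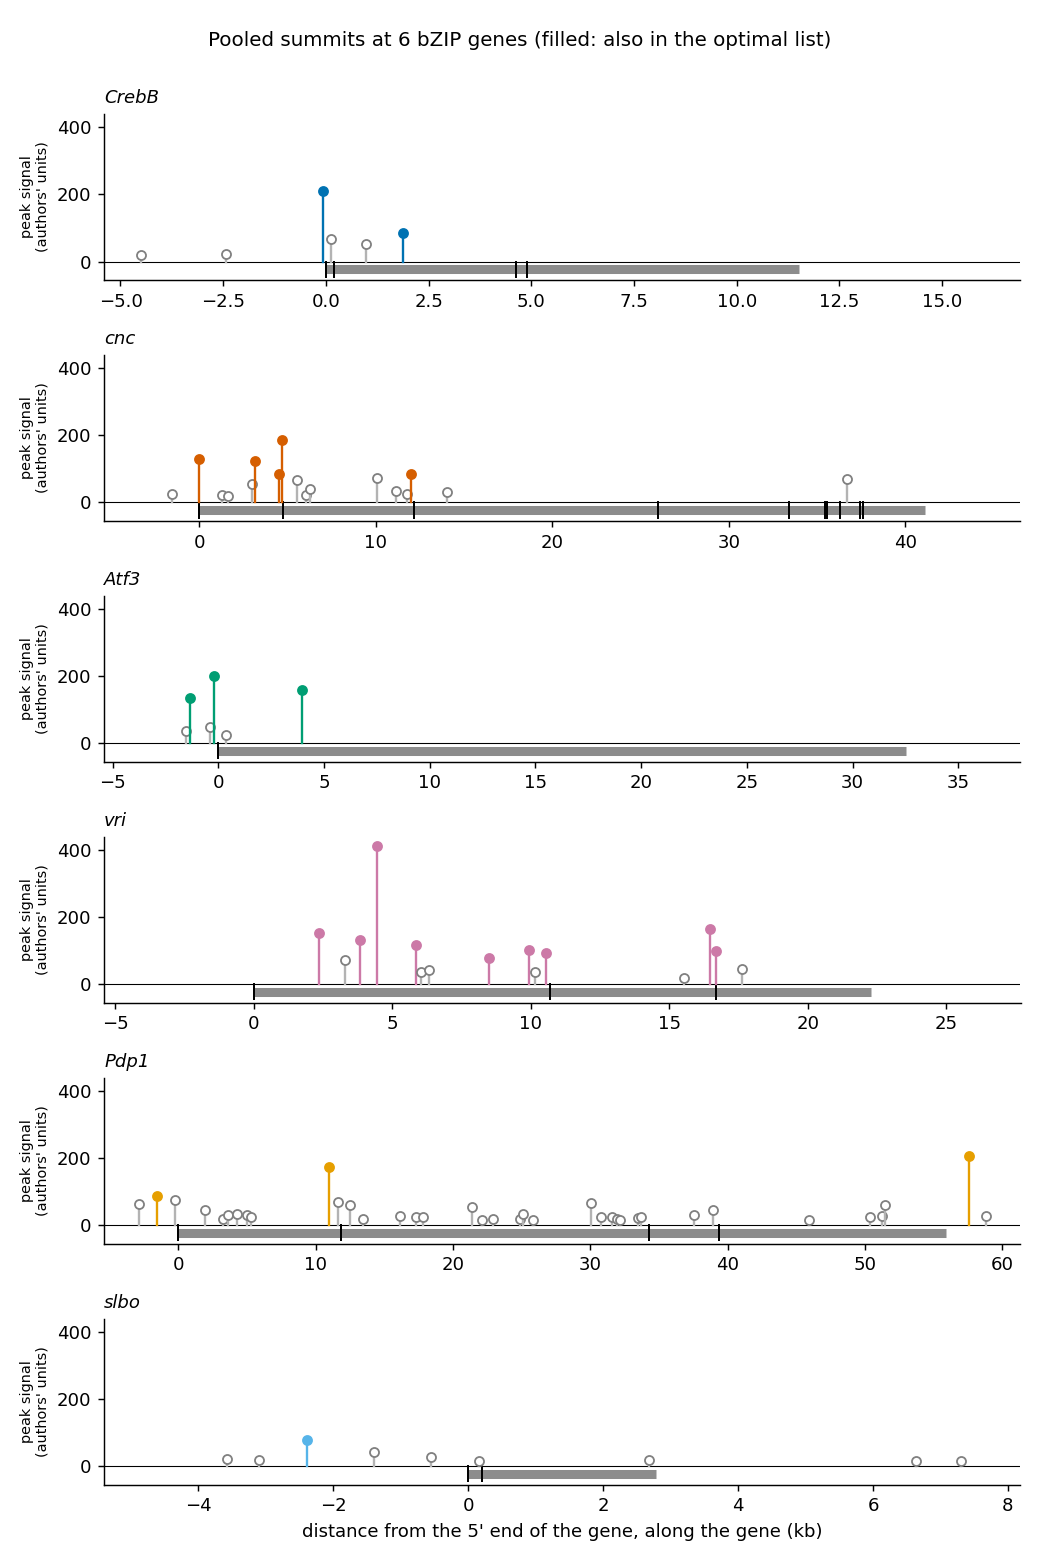
Signal of each pooled summit (y axis, authors' units) against its distance from the gene's 5′ end along the gene (x axis, kb) for 6 bZIP genes, with the gene as a grey bar and its distinct transcript starts as black ticks. Filled points are also in the optimal list, and the tallest, at vri with 414, lies inside the first intron and away from any start.

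CrebB, the CREB gene (FBgn0265784, plus strand of the X chromosome, 18366357 to 18377864), had its stronger peak at its 5′ end. The peak ran from 18366153 to 18366317 with its summit 76 bp upstream of the first annotated start, the start of transcript CrebB-RP. Its signal was 211 and its rank 238 of the pooled list. In replicate 4 the matching summit ranked 204 with signal 98.4, and in replicate 2 it ranked 296 with signal 123. The next start, 204 bp further in, belongs to 3 transcripts and had a pooled summit of signal 67.1 beside it, below the optimal list. The 2 inner starts, 4627 and 4904 bp from the 5′ end and used by 6 of the 10 transcripts, had no pooled summit within 500 bp.

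The second optimal summit of CrebB lay in an intron, 1679 bp downstream of a start, with signal 85.2. The replicates were far apart there: it ranked 1469 in replicate 2, with signal 63.5, but 8833 in replicate 4, with signal 16.9. That was the lowest replicate 4 rank of all 23 summits.

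The CrebB promoter was the only one of the 23 summits with the 8-base CREB3 site, CCACGTCA, within 100 bp. The site was found at 6 of the 2209 nuclear optimal summits, or 0.272%. It reads TGACGTGG on the plus strand and ends 13 bp before the first start. It lies 56 bp from the summit and 20 bp past the end of the deposited peak interval. The stretch is printed because it places the CREB3 site, the gene's start and the summit side by side. It shows the plus strand of the Release 6 RefSeq sequence, stopped where the first exon begins, in lower case with capitals for any of the 13 motifs searched.
CrebB promoter chrX:18366181-18366356: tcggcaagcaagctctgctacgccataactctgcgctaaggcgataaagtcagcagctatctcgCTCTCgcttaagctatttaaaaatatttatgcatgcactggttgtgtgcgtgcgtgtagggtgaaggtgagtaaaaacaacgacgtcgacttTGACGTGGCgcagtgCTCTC
The first capitals are GAGAG on the other strand, the next hold the CREB3 site within a Maf-type match (TGACNNNGC) on the same bases, and the last are again GAGAG on the other strand. The shorter forms fall inside the CREB3 site and are not further sites.

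The gene cnc (FBgn0262975, minus strand of 3R, 23185580 to 23226711) has 10 distinct starts, spread over most of its 41132 bp. Its optimal summits gathered at the 3 starts nearest its 5′ end. The strongest, with signal 187 and pooled rank 326, lay 64 bp upstream of the start used by cnc-RC, cnc-RJ, cnc-RK and cnc-RO, which is inside an intron of the longer transcripts. It ranked 320 in replicate 4, with signal 85.1, and 462 in replicate 2, with signal 103. A weaker one of signal 83.6 lay 200 bp from it, and both were matched to the same replicate 2 summit, the strongest within 200 bp. Replicate 2 also listed a summit closer to the weaker one, 287 bp upstream of the same start, with signal 27.8 and rank 5884. In replicate 4 the weaker one had its own match, with signal 44.3 and rank 1508.

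At the outermost cnc start, used by cnc-RM, cnc-RI and cnc-RN, the summit lay 27 bp upstream with signal 131. Replicate 4 ranked it 358 and replicate 2 ranked it 2139, with signals of 82.5 and 52.4. The start of cnc-RL had a summit 146 bp upstream with signal 84.9 that ranked 2375 in replicate 4 and 2994 in replicate 2, outside the strongest 2238 of both. The fifth summit, with signal 123, lay in an intron 1577 bp upstream of a start and ranked 1859 in replicate 4 and 849 in replicate 2. The other 7 starts, in the 3′ part of the gene, had no optimal summit within 500 bp. One pooled summit of signal 71.3 lay 410 bp downstream of the start of cnc-RE, and it had a match in replicate 2 (rank 2589) and none in replicate 4.

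The sequences at the 2 stronger cnc starts are printed because they differ in what they hold. Both are plus strand, so the gene reads from right to left, and each begins at the base just outside the first exon of those transcripts, while motifs were counted over the full window of 201 bp.
cnc outer start chr3R:23226712-23226838: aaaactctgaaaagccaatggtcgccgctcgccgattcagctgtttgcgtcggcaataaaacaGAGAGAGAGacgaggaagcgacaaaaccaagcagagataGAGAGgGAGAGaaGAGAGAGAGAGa
cnc inner start chr3R:23221962-23222125: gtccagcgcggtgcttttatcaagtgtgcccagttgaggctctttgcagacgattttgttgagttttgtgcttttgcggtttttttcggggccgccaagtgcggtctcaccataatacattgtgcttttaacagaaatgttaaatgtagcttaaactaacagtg
Capitals mark GAGAG, the sequence bound by GAGA factor, which occurs 9 times, in part overlapping, at the outer start, all on the plus strand. None of the 13 motifs was found in the window of the inner start's stronger summit, which had the higher signal of 187. The window of the weaker summit beside it, of 83.6, held 1 GAGAG, 185 bp from that start.

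Atf3 (FBgn0028550, minus strand of X, 1242740 to 1275284) has 1 start, shared by its 3 transcripts, and 3 optimal summits around it. One lay 193 bp upstream of the start with signal 201 and pooled rank 274, with signals of 73.9 in replicate 4 (rank 467) and 128 in replicate 2 (rank 264). Another, 1342 bp upstream, had signal 136, with 52.6 in replicate 4 (rank 1062) and 90.7 in replicate 2 (rank 635). The third lay in the first intron, 3969 bp downstream, with signal 158, and had 71.2 in replicate 4 (rank 510) and 89.4 in replicate 2 (rank 655). All 3 were thus among the strongest 2238 in both replicates. Below the optimal list there were 3 pooled summits. Those 394 and 1547 bp upstream of the start had signals of 49.4 and 37.1. The weakest, of 26.4, lay in the 5′ UTR, 365 bp downstream of the start, and ranked 7015 in replicate 4 and 15100 in replicate 2. Past the intronic summit at 3969 bp, the pooled and replicate 4 lists had no summit in this 32545 bp gene or in the 5000 bp beyond its 3′ end. Replicate 2 alone listed 5 weak ones in introns there, with signals of 10.1 to 17.9.

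The gene vri (FBgn0016076, plus strand of 2L, 5288944 to 5311223) had the most optimal summits of the 8 genes, 9, all in introns. Only 33 protein-coding genes had 9 or more, vri included, while 919 were at least as long as vri. Of the members with an optimal summit, only Pdp1 had the reverse order. For it, 379 genes had at least as many optimal summits and 267 were at least as long. The vri summits spread over 14309 bp. The outer start, that of vri-RE, had none within 500 bp, nor any pooled summit. Each of the 2 inner starts had at least one.

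The strongest vri peak, from 5293218 to 5293495, was the strongest of all 23, with signal 414 and pooled rank 55. Its summit lay 4445 bp inside the first intron counted from the outer start. The replicates placed it alike: it ranked 69 in replicate 4, with signal 151, and 58 in replicate 2, with signal 259. In the same intron lay summits of 154, 132 and 117, at 2371, 3853 and 5844 bp from the outer start. All 3 were in the strongest 2238 of both replicates.

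At the innermost start of vri, used by vri-RD, vri-RA and vri-RF, there were 2 optimal summits. One lay 227 bp upstream with signal 165 and ranked 563 in replicate 4 and 695 in replicate 2. The other lay 26 bp upstream with signal 100 and ranked 2374 in replicate 4 and 931 in replicate 2. Their summits are 201 bp apart and their intervals overlap. At the start of vri-RC a summit of 92.2 lay 133 bp upstream, and another of 103 lay 751 bp upstream. The weakest vri summit, 78.7, lay 472 bp from the start of a non-coding gene inside vri, lncRNA:CR45730, and ranked 5787 in replicate 4 and 2089 in replicate 2.

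The strongest vri window and the one before the innermost start are printed, on the plus strand, to set a peak with no searched motif beside one with 2 ACGTG matches.
vri first intron chr2L:5293289-5293489: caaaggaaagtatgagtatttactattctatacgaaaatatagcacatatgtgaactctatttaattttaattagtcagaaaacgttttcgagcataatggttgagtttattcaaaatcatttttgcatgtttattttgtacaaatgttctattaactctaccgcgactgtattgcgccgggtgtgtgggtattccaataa
vri inner start chr2L:5305323-5305523: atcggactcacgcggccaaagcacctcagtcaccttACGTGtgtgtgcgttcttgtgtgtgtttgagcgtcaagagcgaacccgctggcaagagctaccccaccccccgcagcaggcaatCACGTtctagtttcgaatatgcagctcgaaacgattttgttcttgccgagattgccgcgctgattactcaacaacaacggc
Capitals mark ACGTG, once on each strand and 60 and 20 bp from the summit. ACGTG was found at 4 of the 23 summits and at 19.5% of the nuclear optimal ones. The intron window had 31.3% G and C, and the inner start window 54.2%.

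Pdp1 (FBgn0016694, minus strand of 3L, 7811458 to 7867369) was the longest of the 8 genes, at 55912 bp, and so had the widest window. It had 37 pooled summits, of which 3 were in the optimal list, against 15 and 9 at vri. Per 10 kb of window it had 5.61 pooled summits, against 7.04 at slbo and 4.65 at vri. Its rate of optimal summits was 0.455 per 10 kb, against 0.782 at slbo and 2.79 at vri. The 34 below the optimal list had signals of 15.6 to 74.5, and 15 of them had a match in both replicates. The only optimal summit inside the gene had signal 175 and pooled rank 380 and lay in an intron, 816 bp upstream of the start shared by 7 of its 13 transcripts. In replicate 4 its signal was 72.6 (rank 485) and in replicate 2 it was 104 (rank 461).

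None of the 4 Pdp1 starts had an optimal summit within 500 bp. Pooled summits just under the optimal list stood at 2 of them: one of 74.5 (pooled rank 2373) lay 246 bp upstream of the outer start, and one of 69.3 (rank 2650) lay 160 bp upstream of the start shared by 7 transcripts. The first ranked 1476 in replicate 4 and 3584 in replicate 2. The other 2 optimal summits in the Pdp1 window lay at the starts of neighbouring genes. One of 207 was 24 bp from a start of CG32369, beyond the 3′ end of Pdp1, and one of 88.0 was 106 bp from a start of CG32365, upstream of it. They cannot be assigned to Pdp1 by position.

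The intronic Pdp1 window, again on the plus strand, held 2 copies of TGACGT, the core of the cyclic AMP response element.
Pdp1 intron chr3L:7856264-7856464: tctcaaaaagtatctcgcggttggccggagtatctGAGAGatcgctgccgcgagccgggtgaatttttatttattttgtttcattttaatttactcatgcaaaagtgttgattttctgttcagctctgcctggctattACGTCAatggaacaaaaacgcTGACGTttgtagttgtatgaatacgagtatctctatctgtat
Capitals mark GAGAG first, then TGACGT on the other strand and TGACGT on the plus strand, 38 and 59 bp from the summit. TGACGT was found at 2 of the 23 summits, here and at CrebB, and at 6.2% of the nuclear optimal summits. The full element TGACGTCA was found at none of the 23 and at 0.453% of the nuclear ones.

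The C/EBP gene slbo (FBgn0005638, minus strand of 2R, 24331522 to 24334307) had 1 optimal summit, 2392 bp upstream of its outer start. Its signal of 78.8 was close to the lowest nuclear optimal value, 76.9. It ranked 2898 in replicate 4, with signal 31.5, and 2014 in replicate 2, with signal 54.3. The other 8 pooled summits near slbo had signals of at most 43.5, and 1 of them was matched in both replicates. A pooled summit of 16.2 at the slbo starts had no match in either replicate.

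The genes of the 2 pairing partners had no pooled summit. The small Maf gene maf-S (FBgn0034534, plus strand of 2R, 20640976 to 20641668) had none in any of the 4 lists, and the nearest pooled summit lay 36570 bp away. Irbp18 (FBgn0036126, minus strand of 3L, 11097446 to 11098186) had no optimal, pooled or replicate 4 summit, and the nearest pooled one lay 37781 bp away. Replicate 2 alone listed 2 summits downstream of Irbp18, the stronger with signal 69.1 and rank 1206. Both genes are short, 693 and 741 bp, so their windows are the smallest of the 8. In the pooled list 6 of the 8 genes had a summit in or near them, against 52.8% of all protein-coding genes, and 6 had one within 500 bp of a start, against 23.7%.

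All 23 optimal summits had a summit within 200 bp in both relaxed replicate lists, as did 95.5% of the 2209 nuclear optimal ones. Under the stricter demand of a match among the strongest 2238 peaks of each replicate, 17 of the 23 passed in both, 4 in replicate 2 only, none in replicate 4 only and 2 in neither. The cnc summit of signal 83.6 passed in replicate 2 through the match it shared with its stronger neighbour, of rank 462. Its nearest replicate 2 summit ranked 5884. That shared match also enters the rank counts and rho below. Over the nuclear optimal peaks 56.2% passed in both, 423 peaks in each replicate alone and 121 in neither. Of the 23, 13 had the better rank in replicate 2 and 10 in replicate 4. Spearman's rho of the 2 replicates' signals over the 23 summits was 0.727, a description only, since the summits cluster in 6 genes, share 2 libraries and come from a list made with both.

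**Figure D3:**
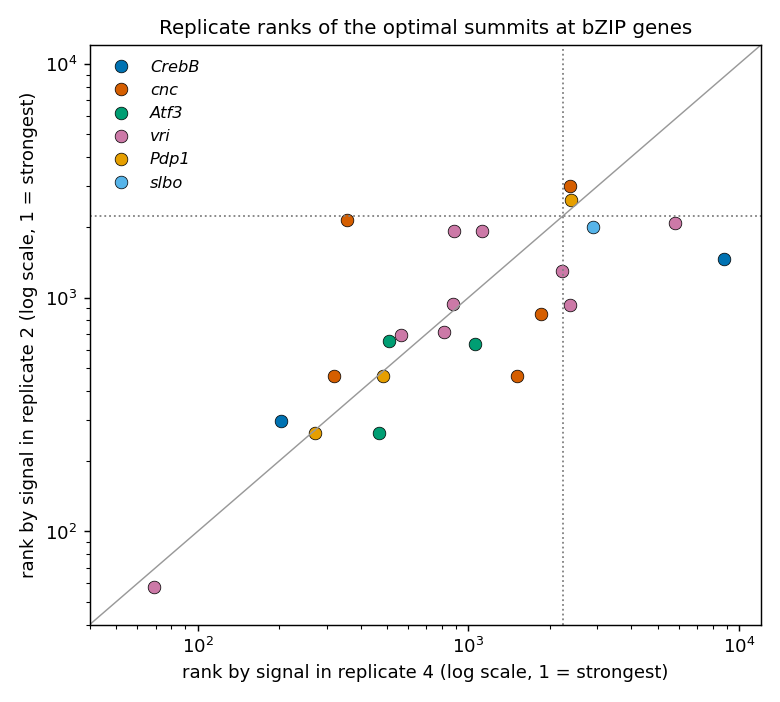
Rank by signal of each of the 23 optimal summits in replicate 2 (y axis) against replicate 4 (x axis), both on log scales where 1 is strongest, coloured by gene. Dotted lines mark rank 2238 and the grey line equal ranks. The strongest vri summit, at 69 and 58, is nearest the lower left corner, and the intronic CrebB summit, at 8833 and 1469, is farthest to the right.

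The C/EBP sequence TTGCGCAA, the PAR sequence TTATGTAA and the AP-1 sequence TGACTCA, all of bZIP factors, and the E-box CACGTG, a site of bHLH factors such as Clk and cyc, were found at none of the 23 summits. They were found at 0.272%, 1.27%, 2.63% and 2.58% of the nuclear optimal summits. GAGAG was found at 8 of the 23, against 39.9% of the nuclear optimal summits. The GATA sequence AGATAA and the forkhead sequence TGTTTAC were found at 1 each, against 15.2% and 6.2%. The CREB3 core CACGTCA and the Maf-type sequence TGACNNNGC were each found once, both at CrebB, against 1.4% and 5.39%. No motif of the 13 was found at 10 of the 23 summits, nor at 34.7% of the nuclear ones. A match is a description of letters in a window of 201 bp, not a binding site, and no match says only that those letters are not in that window.

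Of 14 other bZIP genes, 4 had an optimal summit within 500 bp of a start, against 5.13% of all protein-coding genes and 20.7% of those with 3 or more starts. They were Xbp1 and crc, both of the unfolded protein and stress responses, with signals of 395 and 199, REPTOR, which acts below TOR signalling (325, 196 bp from a start), and the Fos gene kay (135, 94 bp). REPTOR and kay have 4 starts each, and Xbp1 and crc 2 each. The peak at REPTOR ranked 115 in replicate 4 and 92 in replicate 2, that at kay 1680 and 538, and that at Xbp1 had no match in replicate 4. CrebA itself had 4 optimal summits near it and none at its start. Atf6 and tj had only weak pooled summits at a start, of 26.1 and 20.1. The other 7, among them the Jun gene Jra, had no pooled summit at a start.

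Genes that act with the 8 factors were counted in the same way, to be read against the 5.13% of all protein-coding genes, or the 20.7% of those with 3 or more starts, with an optimal summit at a start. Differences between the lists were not tested. Of 7 cofactors and kinases around CrebB, Sik3 had an optimal summit at a start (signal 108, 140 bp), while nej and Crtc, the coactivators, had pooled ones there of 18.0 and 20.9. In the gene or within 5000 bp, 4 of these 7 had an optimal summit, against 15.8% of all protein-coding genes and 40.7% of those over 10 kb. The strongest was 143 for nej, 86.7 for Crtc and 81.1 for the protein kinase A gene Pka-C1. Of 7 genes of the cnc pathway none had an optimal summit at a start, and the Cnc inhibitor gene Keap1 had no pooled one either. GstD1 and Gclc, both antioxidant genes, had pooled summits of 58.0 and 33.4 there, and GstD1 also had 2 optimal summits within 5000 bp, the stronger with signal 118. Of 8 clock genes 1 had an optimal summit at a start, the kinase gene sgg (166), which has 11 starts and acts in many pathways. The clock genes tim, cwo and cry had pooled summits of 31.8, 23.9 and 51.6 at a start, cwo also had 2 optimal summits in or near it (the stronger 107), and Clk, the target of the vri and Pdp1 proteins, had none at its starts.

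Of 7 border cell genes listed with slbo, 3 had an optimal summit at a start, against 5.13% of all protein-coding genes and 20.7% of those with 3 or more starts: EcR (378, 4 starts), jing (209, 3 starts) and the steroid receptor coactivator gene tai (118). The jing peak had no match in replicate 4. None of upd1, dome and hop, the ligand, receptor and kinase of the JAK-STAT pathway, had a pooled summit at a start. Stat92E had none there either, but had 1 optimal summit in the gene or within 5000 bp, with signal 108. By that wider measure 4 of the 7 genes had an optimal summit, against 15.8% of all protein-coding genes and 40.7% of those over 10 kb. Of the 5 genes for partners and the JNK pathway around Atf3 and Irbp18, 3 had an optimal summit at a start, against the same 5.13% and 20.7%. They were puc (491), crc and kay (4 starts), the last 2 already counted among the bZIP genes. Xrp1, named above as a partner of Irbp18, was in neither of these lists and was not examined. The lists are short and the counts carry no test.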

How the data were processed

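Peaks came from 2 biological replicates of 1 group, so there was no comparison of groups and nothing was tested. Per the deposited file notes, the authors called relaxed peak lists per replicate and on pooled alignments against a control, and an optimal list by the irreproducible discovery rate. Which aligner, caller and cutoff were used is not stated in those notes or the labels. Peak signal was taken as deposited by the authors, from column 7 of each list, and its scaling is not stated. The dm3 lists were not used here. All dm6 peaks ended inside the Release 6 RefSeq arms. Genes came from Ensembl release 115, without transposable elements. A summit is column 2 plus column 10, written 1-based. Summits were assigned within 500 bp of a transcript start or 5000 bp of a gene, matched to replicates within 200 bp (the strongest summit there), and ranked by signal. For 13 motifs, both strands of the sequence reaching 100 bp to either side of each summit were searched. Python 3.11.15 and NumPy 2.4.6 were used, and the functions were tested on simulated data. The members and lists were chosen with earlier results of these data known. Named are the 8 genes, genes whose start a summit shares, and list genes with an optimal summit at a start, or up to 3 with a pooled one. The shares over genes with 3 or more starts or over 10 kb, and the individual genes without a summit that are named, were added after the values were seen. Alternatives covered windows, peak lists, match rules and motif windows. Each motif share has the 2209 nuclear optimal summits below it.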

Additional observations from a re-analysis of the deposited data

How the results depend on the processing

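The count of genes with an optimal summit at a start was 4 at 250 bp, 5 at 1000 bp, where Pdp1 joined, 3 with gene 5′ ends only and 4 with the strongest 1000 peaks. It was 5 with replicate 4 alone and 4 with replicate 2 alone. In this section, a replicate alone means the strongest 2238 peaks of its relaxed list, not the whole list. Genes with a summit in or near them numbered 5 to 7 in the alternatives run, the highest with replicate 2 alone, which added Irbp18. The 23 optimal summits became 22 within 2000 bp, 26 within 10000 bp and 14 with the strongest 1000 peaks and ran from 21 with replicate 4 alone to 25 with replicate 2 alone. Their median signal of 131 was 132 at both 2000 and 10000 bp. Summits matched in both replicates numbered 17 to 23. GAGAG was found at 4 summits within 50 bp and 14 within 200 bp, against 8 within 100 bp, and TGACGT at 1 within 50 bp and 2 within 200 bp, since wider windows hold more letters. No paired analysis was possible because there is 1 group. Depth limits could not be given, since the lists hold no read counts.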
